A study of Zea mays with 6 samples.

Results

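The genes described here are the DNA replication, DNA repair and chromatin regulators in a table of maize node transcripts. They were picked by words in the protein description of each gene, among them minichromosome or MCM, proliferating cell nuclear antigen, DNA polymerase, topoisomerase, ribonucleotide or ribonucleoside, replication protein, DNA repair, chromatin, SNF2, cytosine methyltransferase and the histone-modifying enzymes. The rule found 17 genes among the 5546 in the table, and no expression value entered into it.

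The table compares zmte1-2 with the wild type (WT), inbred B73, in 3 RNA-seq libraries of each genotype. The mutant zmte1-2 came from a chemically mutagenised (EMS) population, was backcrossed to B73 and carries an early stop codon in ZmTE1, which encodes an RNA-binding protein of the Mei2-like family, so other induced changes linked to it could still be present. Both genotypes were field-grown and sampled at 28 days, as nodes with their internodes by the labels and as nodes alone by the methods. The labels number the libraries Node 1 to Node 3 and leave unsaid if that number stands for a replicate or for a node position, and nothing states that libraries came from separate plants, so the p-values below measure only the spread between these libraries.

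Every gene in the table had already been called between the genotypes by the authors, so a difference is the ordinary state of a gene here, and the module is read against the rest of the table. Values are FPKM, sequenced fragments scaled to the length of the transcript and to the size of the library. Depth is unknown, because the files give no read counts. ZmTE1 itself (GRMZM2G085113) had 0.33, 0.1 and 0.49 FPKM in the zmte1-2 libraries, against 0.51, 1.19 and 1 FPKM in the WT libraries. A level this low gives little check of the labels, and a premature stop need not change the transcript level. Across the listed genes, zmte1-2 library 2 stood apart from its own genotype: its correlation in log2(FPKM + 0.5) was 0.782 with zmte1-2 library 1 and 0.699 with zmte1-2 library 3, against 0.761, 0.774 and 0.708 with WT libraries 1 to 3, whereas zmte1-2 libraries 1 and 3 correlated at 0.944 and WT libraries among themselves at 0.870 to 0.948. Results are therefore also given without this library, and without it and WT library 1, the lowest correlated of the WT libraries. In bulk tissue, fewer cells of a type and less RNA per cell cannot be told apart.

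Replication genes of plants, as in other eukaryotes, are transcribed mostly in cells that are about to enter or are in S phase, so their transcripts are abundant in meristems and scarce in tissue that has stopped dividing. The MCM helicase opens the origin, replication protein A coats the single strands, the PCNA ring holds the polymerases on the template, ribonucleotide reductase provides the deoxynucleotides and topoisomerase 2 untangles the daughter duplexes. Behind the fork, chromatin assembly factors place histones on the new DNA, and DNA and histone methyltransferases copy the marks of silent chromatin onto it.

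Of the 17 members, 14 had lower FPKM in each zmte1-2 library than in any WT library, 1 (SUVR4) had higher FPKM in each zmte1-2 library, and 2 overlapped between the genotypes. Over all 5546 listed genes, 48.8% lay wholly lower in zmte1-2 and 11.4% wholly higher, and over the tested genes described next these shares were 52.8% and 11.7%. With limma on log2(FPKM + 0.5), 13 members had enough signal to be tested, since the filter asked for 3 or more libraries at 1 FPKM or above, and 6 of these 13 (46.2%) fell at a Benjamini-Hochberg adjusted p under 0.05, whereas none rose. The background over the 3987 tested genes was 34.2% lower and 6.02% higher. At an unadjusted p under 0.05, 12 of the 13 members were lower, against 53.5% of all tested genes. The module's log2 fold changes ran from -1.92 to -0.99 with a median of -1.26, whereas those of all tested genes ran from -7.72 to 5.82 with a median of -1.08. CLASSY 1 passed the expression filter through its WT libraries alone, and such a gene has to differ, so the counts over tested members describe them and are not support for a difference.

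The 6 members that fell were the DNA methyltransferase Zmet5, the remodelling protein CLASSY 1, DNA polymerase delta, the chromatin assembly factor NFD106, the ribonucleotide reductase small chain RNRS1 and PCNA 2. The number of calls depended on single libraries: leaving out zmte1-2 library 1 or WT library 3 gave 0, leaving out WT library 1 gave 1, leaving out zmte1-2 library 3 or WT library 2 gave 3, and leaving out zmte1-2 library 2 gave 8. Leaving out both zmte1-2 library 2 and WT library 1 gave 3 (Zmet5, CLASSY 1 and SUVR2), with a member median of -1.01, while 1788 of all tested genes were then lower and 755 higher. The background moved with it, with 1, 2, 148, 701, 1015 and 1949 of all tested genes lower when zmte1-2 library 1, WT library 3, WT library 1, zmte1-2 library 3, WT library 2 and zmte1-2 library 2 were left out in turn. The libraries were also rescaled by the median of ratios, with factors taken only from the listed genes, all called by the authors. This assumes no overall shift, moves the median of all tested genes from -1.08 to -0.08, and so raises fold changes in general. After it, the member median was -0.13, 11 of the 13 members were still below 0 and no member passed at an adjusted p under 0.05. The calls over all tested genes were then 200 lower and 590 higher, in place of 1363 lower and 240 higher.

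**Figure D1:**
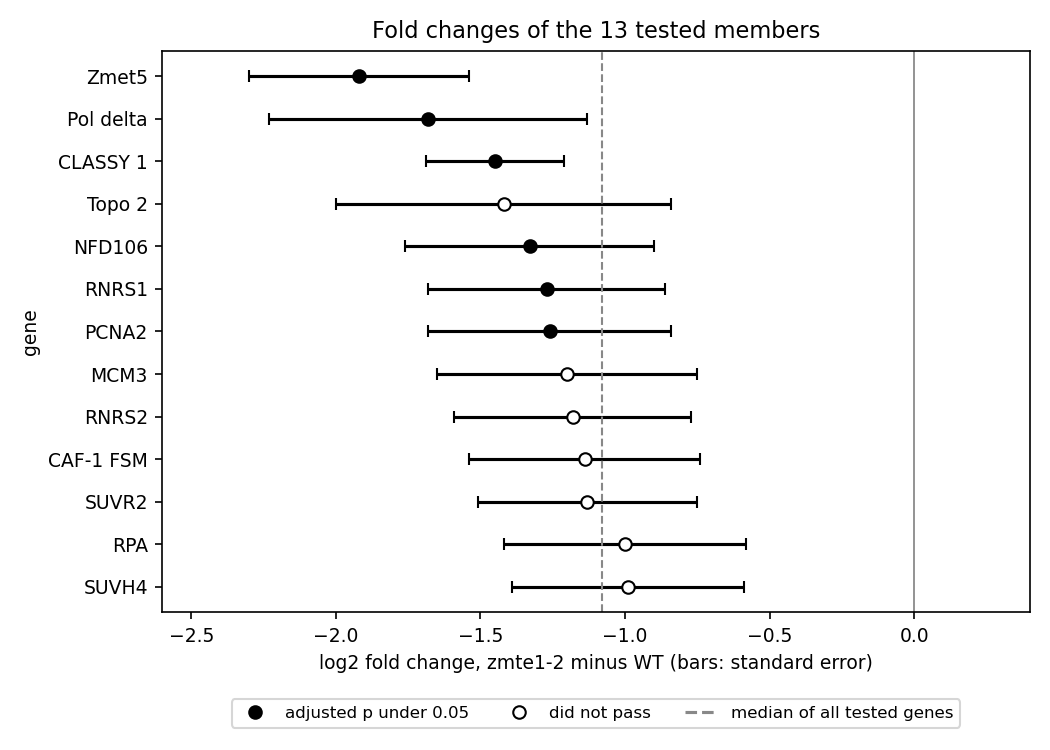
The log2 fold change of each of the 13 tested members (zmte1-2 minus WT, on the log2(FPKM + 0.5) scale) is a point with its standard error as a bar, filled where limma's adjusted p is under 0.05, and the dashed line is the median of all tested genes. The 6 filled points include Zmet5 at -1.92 as the lowest, and all 13 lie below 0 as deposited, although SUVH4 and replication protein A lie above 0 after median-of-ratios rescaling.

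The replication fork was represented by 7 members. PCNA 2 (GRMZM2G108712, chromosome 4 from 173062872 to 173064850), the sliding clamp, had 16.01, 18.78 and 30.06 FPKM in the zmte1-2 libraries, against 63.76, 41.62 and 48.76 FPKM in the WT libraries. The genotypes did not overlap, and the highest zmte1-2 library was 3 while the highest WT library was 1. PCNA 2 averaged 21.6 ± 7.44 FPKM in zmte1-2 and 51.4 ± 11.3 FPKM in WT (SD, n = 3 each), with a log2 fold change of -1.26 (SE 0.42, limma adjusted p = 0.0497), just inside the threshold. Coordinates here and below are those of the authors' table, and the sources used here name no genome build for them.

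The gene described as delta DNA polymerase (GRMZM2G369260, chromosome 10 from 75681004 to 75681997) is a small gene whose orthology entry is subunit 4, an accessory subunit of the polymerase that makes most of the lagging strand. Its levels were 6.73, 2.98 and 12.01 FPKM in zmte1-2, against 27.88, 16.47 and 21.01 FPKM in WT. All 3 zmte1-2 libraries lay under the lowest WT library, but on the log2 scale they differed among themselves more than the WT libraries did. The log2 fold change was -1.68 (SE 0.55, limma adjusted p = 0.0478).

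Ribonucleotide reductase, which converts ribonucleotides to the deoxynucleotides used in replication, had both of its listed genes in the module, each a small chain that carries the radical of the enzyme. RNRS1 (GRMZM2G060163, chromosome 9 from 30855562 to 30857663) had 20.11, 19.03 and 24.64 FPKM in zmte1-2, against 69.16, 36.5 and 54.84 FPKM in WT. The zmte1-2 libraries were close to each other, and the WT libraries were widely spread. RNRS1 fell by 1.27 on the log2 scale (SE 0.41, limma adjusted p = 0.0460). RNRS2 (GRMZM2G155546, chromosome 6 from 118255931 to 118257833) was expressed at a lower level, with 4.47, 2.37 and 4.66 FPKM in zmte1-2, against 10.89, 6.67 and 10 FPKM in WT. The genotypes were separate here too, yet RNRS2 did not pass (log2 fold change -1.18 with an SE of 0.41, adjusted p = 0.0540 by limma).

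The remaining fork members were separate between the genotypes without passing the test. The MCM3-type helicase subunit (GRMZM2G162445, also named ROA4, chromosome 8 from 118395998 to 118401227), part of the ring that licenses origins, had 2.23, 4.3 and 5.71 FPKM in zmte1-2, against 12.65, 8.72 and 7.6 FPKM in WT, with a log2 fold change of -1.20 (SE 0.45, limma adjusted p = 0.0606). Replication protein A (GRMZM2G086934, the large subunit by orthology, chromosome 9 from 147128364 to 147131996) had 8.06, 8.38 and 15.17 FPKM in zmte1-2, against 26.53, 16.21 and 20.48 FPKM in WT. Its highest zmte1-2 library came close to its lowest WT library, and its fall by 1.0 on the log2 scale did not pass, with the largest adjusted p of the tested members by limma, 0.0783, and after median-of-ratios rescaling it stood at 0.13. DNA topoisomerase 2 (GRMZM2G121210, chromosome 4 from 158520334 to 158524645), which passes one duplex through another, had 10.8, 4.24 and 19.48 FPKM in zmte1-2, against 32.85, 23.45 and 25.04 FPKM in WT. This was the widest spread among zmte1-2 libraries of any tested member, an SD of 1.05 on the log2 scale, and its fold change of -1.42 (SE 0.58) did not pass by limma (adjusted p = 0.0714).

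**Figure D2:**
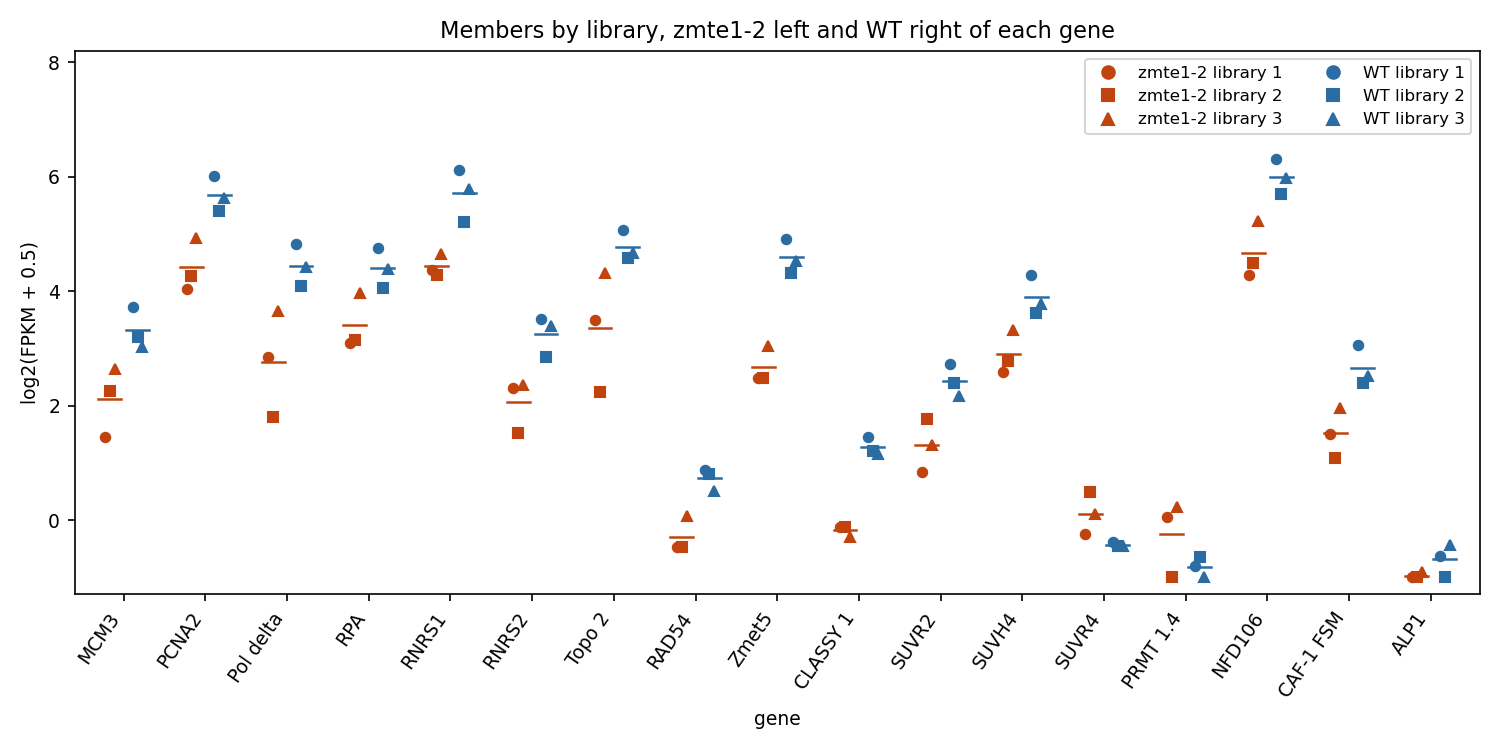
The level of each of the 17 members is plotted as log2(FPKM + 0.5) for every library, with the zmte1-2 libraries left and the WT libraries right of each gene, and the marker shape gives the library number. The 13 tested members sit lower in every zmte1-2 library than in any WT library, SUVR4 sits higher, and PRMT 1.4 and ALP1 overlap near the floor of the scale.

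DNA repair had a single member, RAD54 (GRMZM2G083138, chromosome 5 from 209791113 to 209803331), a motor protein of homologous recombination. Its levels were 0.22, 0.22 and 0.55 FPKM in zmte1-2, against 1.34, 1.25 and 0.93 FPKM in WT. The genotypes did not overlap, but RAD54 did not meet the expression filter and was not among the 13 tested members. When the filter was dropped, its log2 fold change was -1.03 (SE 0.27, limma adjusted p = 0.0417).

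The silencing genes held the 2 smallest adjusted p-values of the module. The gene described as DNA (cytosine-5)-methyltransferase 3, which RefSeq lists as Zmet5 (GRMZM2G005310, chromosome 2 from 10343925 to 10353440), belongs to the plant-specific chromomethylases, which methylate cytosines in the CHG context of silent chromatin. It had 5.06, 5.1 and 7.77 FPKM in zmte1-2, against 29.7, 19.54 and 22.47 FPKM in WT, so that the lowest WT library was above 2 times the highest zmte1-2 library. Its mean was 5.98 ± 1.55 FPKM in zmte1-2 and 23.9 ± 5.23 FPKM in WT (SD, n = 3 each), and it had the lowest log2 fold change of the tested members with 0.5 added to each FPKM (log2 fold change -1.92 with an SE of 0.38, adjusted p = 0.0182 by limma). The call was lost without zmte1-2 library 1, WT library 1 or WT library 3, where the adjusted p by limma was 0.089, 0.0706 and 0.0895, within a range of 0.00985 to 0.11 over all alternatives.

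CLASSY 1 (GRMZM2G108166, chromosome 7 from 174759307 to 174764297) is an SNF2-type protein that in Arabidopsis recruits RNA polymerase IV to loci that are silenced through small RNAs. It had 0.42, 0.42 and 0.31 FPKM in zmte1-2, against 2.23, 1.82 and 1.73 FPKM in WT. The libraries of each genotype were tightly grouped, and the ratio of the WT mean to the zmte1-2 mean was 5.03, compared with 4.0 for Zmet5, and with 0.1 added in place of 0.5 its log2 fold change was -2.07, below the -1.99 of Zmet5. CLASSY 1 had the smallest adjusted p of the module (log2 fold change -1.45 with an SE of 0.24, adjusted p = 0.0127 by limma), and because its level in zmte1-2 is below the added 0.5, that fold change understates the ratio. Without zmte1-2 library 1 the limma adjusted p was 0.0738, and without WT library 3 it was 0.0672.

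The histone methyltransferases of the SUV family gave a mixed picture. SUVH4 (GRMZM2G054380, chromosome 8 from 159782943 to 159797629), whose Arabidopsis counterpart methylates lysine 9 of histone H3 and acts in a loop with a chromomethylase, had 5.52, 6.33 and 9.54 FPKM in zmte1-2, against 19.01, 11.75 and 13.11 FPKM in WT. The genotypes were apart by a small margin, and SUVH4 did not pass the test (log2 fold change -0.99 with an SE of 0.40, adjusted p = 0.0702 by limma) and stood at 0.11 after median-of-ratios rescaling. SUVR2 (GRMZM2G318803, chromosome 1 from 201662604 to 201667147), described as probably inactive as an enzyme and known in Arabidopsis for a part in RNA-directed DNA methylation, had 1.29, 2.9 and 1.99 FPKM in zmte1-2, against 6.14, 4.77 and 4 FPKM in WT. Its log2 fold change was -1.13 (SE 0.38, limma adjusted p = 0.0519), close to the threshold but not past it.

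SUVR4 (GRMZM2G360389, chromosome 4 from 141550233 to 141553737), a relative of SUVR2 that in Arabidopsis methylates histone H3 at transposons, was the only member of the 17 with higher levels in every zmte1-2 library. It had 0.34, 0.9 and 0.57 FPKM in zmte1-2, against 0.27, 0.23 and 0.23 FPKM in WT. These levels were too low for the filter, and without the filter SUVR4 did not pass (log2 fold change 0.54 with an SE of 0.25, adjusted p = 0.104 by limma).

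Chromatin assembly was represented by a nucleosome/chromatin assembly factor and by a subunit of the assembly complex CAF-1. NFD106 (GRMZM2G125648, chromosome 4 from 195556757 to 195558537), by orthology an HMG-box protein that bends DNA, was the most abundant member, with 18.96, 22.05 and 37.1 FPKM in zmte1-2, against 79.15, 51.67 and 62.43 FPKM in WT. It averaged 26.0 ± 9.70 FPKM in zmte1-2 and 64.4 ± 13.8 FPKM in WT (SD, n = 3 each), and it fell by 1.33 on the log2 scale (SE 0.43, limma adjusted p = 0.0470). The CAF-1 subunit (GRMZM2G010105, chromosome 8 from 163906201 to 163912934) is named after the rice gene FSM, for flattened shoot meristem, and its complex deposits histones H3 and H4 behind the fork. It had 2.34, 1.61 and 3.4 FPKM in zmte1-2, against 7.81, 4.75 and 5.19 FPKM in WT. No library of one genotype reached the range of the other, and the CAF-1 subunit did not pass (log2 fold change -1.14 with an SE of 0.40, adjusted p = 0.0537 by limma).

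The 2 members left were barely expressed, and their genotypes overlapped. The gene described as histone-arginine methyltransferase 1.4 (AC208892.3_FG005, chromosome 2 from 216992254 to 216993395) had 0.54, 0 and 0.67 FPKM in zmte1-2, against 0.07, 0.14 and 0 FPKM in WT, and its orthology entry names a phosphatase-like protein, so its description is uncertain. ALP1 (GRMZM2G163533, chromosome 8 from 107719943 to 107721644), a transposase-derived protein that the word chromatin in its name brought into the rule, had 0, 0 and 0.03 FPKM in zmte1-2, against 0.15, 0 and 0.24 FPKM in WT. Neither was tested, and neither had an adjusted p under 0.05 without the filter.

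The members also varied together within each genotype. WT library 1 was the highest WT library for 13 of the 13 tested members (100%), compared with 54.1% of all tested genes, and WT library 2 was the lowest for 10 of them. Within zmte1-2, library 3 was the highest for 11 of the 13 (84.6%), compared with 38.2% of all tested genes. The summed FPKM of the 17 members was 103, 99.6 and 174 in the zmte1-2 libraries, against 390, 246 and 298 in the WT libraries. Thus the highest zmte1-2 sum stayed below the lowest WT sum, and the spread within a genotype was of a size that matters to the tests. Over the tested members the median SD on the log2 scale was 0.463 in zmte1-2 and 0.347 in WT, compared with 0.593 and 0.431 over all tested genes.

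The list of dividing-cell markers moved in the same way between libraries. Its 17 listed genes were all core histones, whose transcripts accumulate in S phase, and they summed to 1442, 1324 and 2338 FPKM in zmte1-2, against 4698, 2764 and 4354 FPKM in WT. Of its 16 tested genes, 2 (12.5%) were called lower and none higher, compared with 34.2% lower and 6.02% higher of all tested genes. The median log2 fold change of the 16 was -1.29, or -0.16 after median-of-ratios rescaling, where 3 of the 16 lay above 0. Library 3 was the highest zmte1-2 library for 16 of 16 tested histones, and library 1 was the highest WT library for 14 of 16. The part of cell division in the member values was not tested.

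Markers of other tissue in the dissected nodes also differed between libraries. The 30 listed chlorophyll-binding and photosystem genes, which mark green tissue, summed to 174, 219 and 158 FPKM in zmte1-2, against 1092, 285 and 596 FPKM in WT. Of these, 10 of 25 tested genes (40.0%) were called lower and none higher, and none was called after median-of-ratios rescaling. The share called lower was near the 34.2% of all tested genes. WT library 1 was the highest of the WT libraries here as well, but within zmte1-2 the highest sum was in library 2 and the lowest in library 3, the reverse of the members. The 6 meristem genes summed to 84.1, 95 and 68 FPKM in zmte1-2, against 153, 92.5 and 128 FPKM in WT, so the genotypes overlapped. Of the 6, 2 (33.3%, again near the share of all tested genes) were called lower and none higher, or 1 lower and 1 higher among 5 after median-of-ratios rescaling. The homeobox gene KN1 (GRMZM2G017087), which marks meristem cells, had 35.33, 81.65 and 16.97 FPKM in zmte1-2, against 142.66, 75.29 and 108.02 FPKM in WT, and its lowest zmte1-2 library was the library in which the members were highest. The 5 jasmonate-response genes (TIFY) summed to 48.2, 59.4 and 22.9 FPKM in zmte1-2, against 22.9, 41.8 and 35.1 FPKM in WT. Of the 5, 2 were higher in every zmte1-2 library than in any WT library and 3 overlapped. None of the 3 tested was called, and after median-of-ratios rescaling 1 of the 3 was called higher. None of these marker genes was at 0 in every library, and their part in the member values was not tested.

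**Figure D3:**
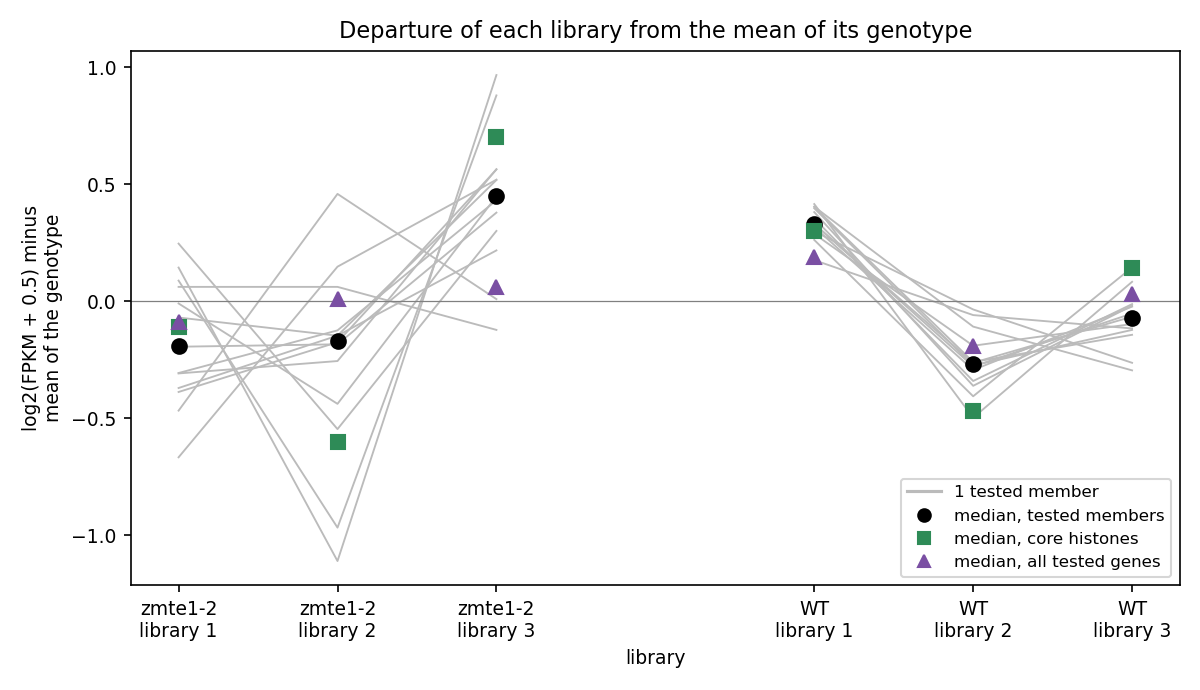
The departure of each library from the mean of its own genotype, in log2(FPKM + 0.5), is drawn as a grey line for each tested member, with markers at the medians of the tested members, the core histones and all tested genes. Lines only connect the values of a gene, since libraries have no order. The member median was 0.45 above the genotype mean in zmte1-2 library 3 and 0.33 above it in WT library 1, and the histone medians there were 0.70 and 0.30.

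The pathways of the module were then followed beyond it, through 59 listed genes that the rule had missed and whose orthology entries belong to replication, base or nucleotide excision repair, mismatch repair, homologous recombination or end joining. Of these, 42 were tested, 15 fell (35.7%) and 5 rose, and their median log2 fold change was -1.02. The background over all tested genes was 34.2% lower and 6.02% higher. The orthology column is loose: 10 of the 59 are thaumatin- or osmotin-like proteins by description, which are defence and osmotic-stress proteins. With the first orthology entry of each gene alone, 30 were tested, 7 fell (23.3%) and 4 rose. When only genes were kept whose every orthology entry belongs to these pathways, an alternative chosen after seeing the data, 23 were tested, 7 fell (30.4%) and 2 rose. The counts moved with single libraries: without zmte1-2 library 1 or WT library 3 none was called, without WT library 1 there were 2 lower and 0 higher, without zmte1-2 library 3 there were 7 lower and 1 higher, and without zmte1-2 library 2 there were 23 lower and 7 higher. All tested genes then gave 1 lower and 1 higher without zmte1-2 library 1, and 2 and 1 without WT library 3. They gave 148 and 10 without WT library 1, 701 and 74 without zmte1-2 library 3, and 1949 and 805 without zmte1-2 library 2. Median-of-ratios rescaling gave 4 lower and 8 higher pathway genes, beside 200 lower and 590 higher of all tested genes.

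The 3 smallest p-values in this wider list did not come from genes described as replication or repair proteins. The osmotin-like gene GRMZM2G429982 had 5.51, 5.47 and 6.29 FPKM in zmte1-2, against 55.69, 23.01 and 36.72 FPKM in WT (log2 fold change -2.55 with an SE of 0.43, adjusted p = 0.0132 by limma). A cytochrome b561 gene (GRMZM2G023133), an electron carrier of membranes, had 0.43, 0.62 and 0.39 FPKM in zmte1-2, against 4.41, 2.42 and 4.94 FPKM in WT (log2 fold change -2.13 with an SE of 0.34, adjusted p = 0.0127 by limma). The gene described as PYRICULARIA ORYZAE RESISTANCE 21-like (GRMZM2G177076) had 0.7, 0.36 and 0.76 FPKM in zmte1-2, against 4.65, 3.23 and 4.94 FPKM in WT (log2 fold change -2.11 with an SE of 0.32, adjusted p = 0.0126 by limma). In each of the 3 the zmte1-2 libraries lay far under the WT libraries. GRMZM2G023133 and GRMZM2G177076 passed the expression filter through their WT libraries alone, so they had to differ to be tested. Each call was lost without zmte1-2 library 1 or WT library 3, for GRMZM2G429982 also without WT library 1. All 3 held after median-of-ratios rescaling, with log2 fold changes of -1.44 for GRMZM2G429982, -1.31 for GRMZM2G023133 and -1.25 for GRMZM2G177076. The lowest log2 fold change of the list was that of GRMZM2G064605, described as uncharacterized (-3.12 with an SE of 0.77, adjusted p = 0.0276 by limma). It had 7.92, 40.22 and 4.75 FPKM in zmte1-2, against 133.23, 97.31 and 89.97 FPKM in WT, and was not called after rescaling.

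Among the 5 that rose, 3 were again described as something else. The thaumatin-like gene GRMZM2G036826 had 41.14, 31.35 and 22.47 FPKM in zmte1-2, against 8.66, 11.89 and 7.34 FPKM in WT (log2 fold change 1.70 with an SE of 0.41, adjusted p = 0.0272 by limma). The abscisic acid-responsive gene GRMZM2G106622 had 19.71, 9.75 and 14.69 FPKM in zmte1-2, against 3.68, 5.27 and 3.26 FPKM in WT (log2 fold change 1.71 with an SE of 0.41, adjusted p = 0.0273 by limma). GRMZM2G114153, described as FIP1, had 11.59, 7.62 and 13.19 FPKM in zmte1-2, against 2.95, 4.51 and 2.45 FPKM in WT (log2 fold change 1.57 with an SE of 0.40, adjusted p = 0.0301 by limma). These genes were expressed at over 1 FPKM in both genotypes and did not overlap. The other 2 fit the pathways by description. A DNA glycosylase superfamily gene (GRMZM2G160738), of the enzymes that remove damaged bases, had 2.64, 3.19 and 1.97 FPKM in zmte1-2, against 0.61, 1.43 and 0.97 FPKM in WT (log2 fold change 1.06 with an SE of 0.34, adjusted p = 0.0458 by limma). Other genes with DNA-3-methyladenine glycosylase orthology went both ways. GRMZM2G171317 (log2 fold change -1.67, limma adjusted p = 0.0294) and GRMZM2G143535 (log2 fold change -1.14, limma adjusted p = 0.0364) were called lower. Neither was called after median-of-ratios rescaling. GRMZM2G143535 had 0.57, 0.89 and 0.61 FPKM in zmte1-2, against 2.93, 1.37 and 2.23 FPKM in WT. It passed the expression filter through its WT libraries alone, so it had to differ to be tested. GRMZM2G097573, GRMZM2G175269 and GRMZM2G005844 were lower and GRMZM2G164062 was higher, all without passing. After rescaling GRMZM2G164062 was called higher. An OB-fold gene with the orthology of the middle subunit of replication protein A (GRMZM2G018946) had 1.21, 1.26 and 1.28 FPKM in zmte1-2, against 0.79, 0.46 and 0.45 FPKM in WT (log2 fold change 0.73 with an SE of 0.24, adjusted p = 0.0497 by limma). GRMZM2G018946 passed the expression filter through its zmte1-2 libraries alone, so it had to differ to be tested, and it was no longer called when any single library was left out, GRMZM2G160738 was still called only without WT library 2, and leaving out zmte1-2 library 1, WT library 1 or WT library 3 ended the call of each of the other 3, as did leaving out zmte1-2 library 3 for GRMZM2G106622 and GRMZM2G114153. All 5 stayed called as higher after median-of-ratios rescaling, by 1.44 to 2.81 on the log2 scale. That rescaling raises fold changes in general, so it is no separate support for these 5.

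**Figure D4:**
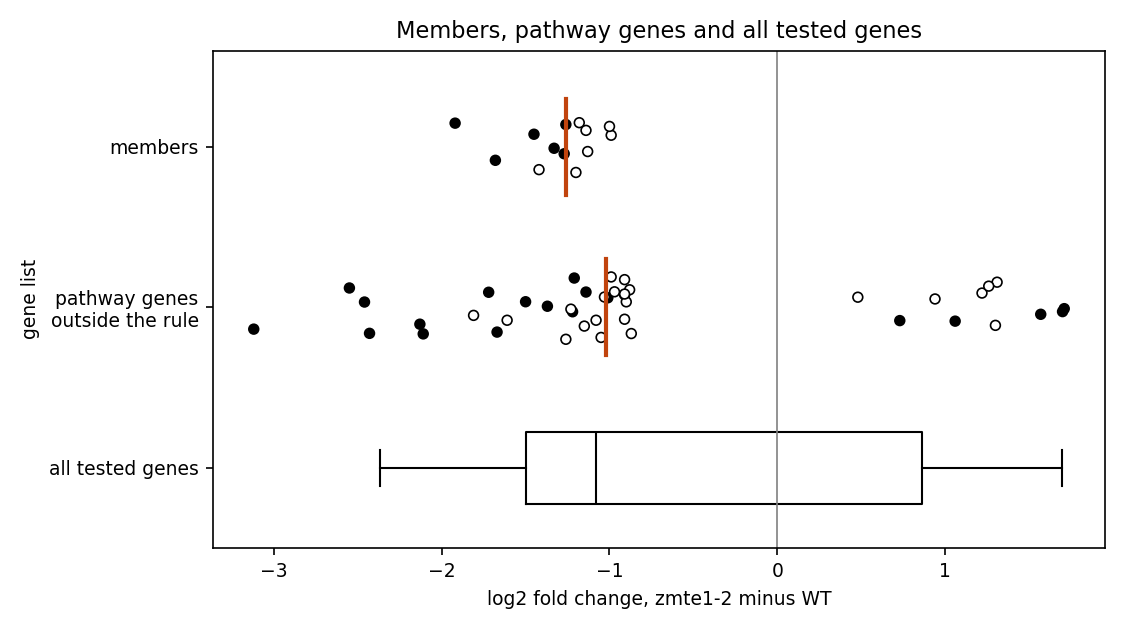
Each point is the log2 fold change (zmte1-2 minus WT) of a tested module member or pathway gene outside the module, filled where limma's adjusted p is under 0.05, with the list's median as a vertical line. The box for all tested genes spans the quartiles with a line at the median, and its whiskers reach the 5th and 95th percentiles. The members lie between -1.92 and -0.99 as deposited, with SUVH4 and replication protein A turning above 0 after median-of-ratios rescaling, whereas the 42 tested pathway genes lie on either side of 0 with a median of -1.02.

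Genes that work beside the members were looked up after their values were seen. MUS2 (GRMZM2G110212), by orthology the mismatch-recognition protein MSH6, had 1.96, 2.13 and 2.59 FPKM in zmte1-2, against 5.75, 4.31 and 4.93 FPKM in WT, and it fell by 1.01 on the log2 scale (SE 0.32, limma adjusted p = 0.0466), a change close to 0 after median-of-ratios rescaling. EXO1 (GRMZM2G096920 by orthology), the exonuclease that removes the mismatched strand, had 1.49, 1.18 and 2.34 FPKM in zmte1-2, against 4.08, 3.53 and 3.5 FPKM in WT, and it did not pass (limma adjusted p = 0.0523). A subunit of the clamp loader that places PCNA on DNA (GRMZM2G302160, replication factor C subunit 2/4 by orthology) had 1.32, 1.37 and 1.77 FPKM in zmte1-2, against 3.6, 2.37 and 3.78 FPKM in WT, also without passing (limma adjusted p = 0.0563). After rescaling EXO1 stood at -0.03 and this subunit at 0.04. GRMZM2G010636, with the orthology entry of the member replication protein A, was higher, at 6.05, 3.51 and 8.28 FPKM in zmte1-2, against 2.58, 3.22 and 2.35 FPKM in WT. It did not pass (limma adjusted p = 0.0816) but was called after rescaling. GRMZM2G076329, GRMZM2G098714 and GRMZM2G408703, with the same entry, were lower without passing. Under the filter, GRMZM2G523414 with this entry was higher, at 0.95, 0.59 and 0.71 FPKM in zmte1-2, against 0.1, 0.31 and 0 FPKM in WT (limma adjusted p = 0.0402 without the filter). Also under it, GRMZM2G327208 was lower in every zmte1-2 library and GRMZM2G405225 overlapped, and neither passed without the filter.

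Related genes did not always keep their proportions, as ratios within each library showed for pairs chosen after their values were seen, given as description with no test. RNRS1 over RNRS2 was 4.5, 8.03 and 5.29 in zmte1-2, against 6.35, 5.47 and 5.48 in WT, and the mean log2 ratios, 2.53 in zmte1-2 and 2.52 in WT, were nearly equal. NFD106 over PCNA 2, which are not related by sequence, was 1.18, 1.17 and 1.23 in zmte1-2, against 1.24, 1.24 and 1.28 in WT, so these abundant members kept close to the same proportion in every library. By contrast, for the pair of genes with the orthology of the middle subunit of replication protein A, GRMZM2G061485 over GRMZM2G018946 was 0.719, 0.825 and 1.01 in zmte1-2, against 5.33, 4.91 and 7.02 in WT. Here GRMZM2G061485 itself had 0.87, 1.04 and 1.29 FPKM in zmte1-2, against 4.21, 2.26 and 3.16 FPKM in WT (log2 fold change -1.22 with an SE of 0.33, adjusted p = 0.0335 by limma), while GRMZM2G018946 rose as given above, with the limits given there. After median-of-ratios rescaling GRMZM2G061485 stood at -0.31 and was no longer called. SUVR2 over SUVR4 was 3.79, 3.22 and 3.49 in zmte1-2, against 22.7, 20.7 and 17.4 in WT. The ratios of the last 2 pairs did not overlap between the genotypes. Those of NFD106 over PCNA 2 did not overlap either, but there the mean log2 ratio differed by only -0.07, against -2.75 and -2.53 for the last 2 pairs. SUVR4 rests on levels under 1 FPKM, and reads shared between similar genes could have been split by the authors' counting.

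**Figure D5:**
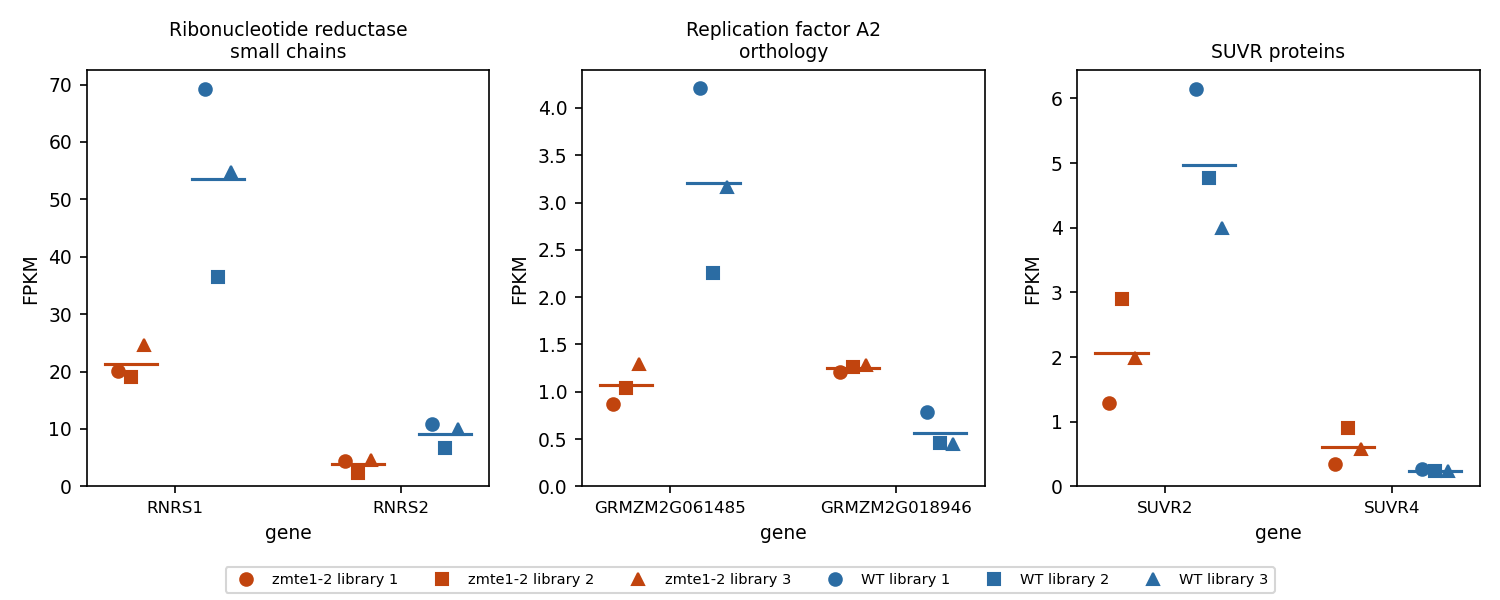
The FPKM of the genes of each pair is shown for every library, with the zmte1-2 libraries left and the WT libraries right of each gene on axes that start at 0, and a horizontal line at each mean. RNRS1 and RNRS2 are both lower in every zmte1-2 library, whereas in the replication protein A pair GRMZM2G061485 is lower and GRMZM2G018946 is higher in every zmte1-2 library.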

How the data were processed

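Node RNA was sequenced in 3 zmte1-2 and 3 WT libraries. The authors deposited one table of 5546 called genes with the FPKM of each library. The sources used here do not give the aligner, the counting method or the genome build. The authors' columns of log2 ratios, p-values and q-values, 5 of them pooled comparisons or means and 9 comparing 1 library with 1 library, were not used.

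Genes outside the table were not analysed here, and because listed genes were selected on these libraries, an adjusted p is no estimate of how many calls are false. limma 3.58.1 in R 4.3.3 (mean-variance trend, two-sided) was fitted to log2(FPKM + 0.5) of 3987 genes, those reaching 1 FPKM in 3 or more libraries. The threshold was 0.05 on p-values adjusted by Benjamini-Hochberg over all tested genes. The procedure was tested on simulated data, where it called few of the changed genes. In that simulation only a small share of the genes was changed, unlike in this table, so the share it called does not carry over. The fold change on this scale understates the change of genes near or under 0.5 FPKM.

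Members and lists were chosen with earlier results of these data known. Named were, per role, the 2 most abundant tested members and the 2 with the smallest p, the 3 highest and 3 lowest fold changes, every member called higher, any member with a mean of at least 0.5 FPKM in one genotype and 0 throughout the other, and, of the pathway genes outside the module, the 3 with the smallest p and every riser. Names come from the table and from RefSeq (Zm-B73-REFERENCE-NAM-5.0), whose coordinates were not used. Alternatives changed the pseudocount, filter, scaling, trend, replicate block, orthology rule and libraries.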

Additional observations from a re-analysis of the deposited data

How the results depend on the processing

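Of 182 comparisons of a tested member with its value under an alternative, 180 kept zmte1-2 lower; the exceptions were SUVH4 (0.11) and replication protein A (0.13) under median-of-ratios rescaling. The 6 called members kept their call in 35 of 84 comparisons and lost it in 49. The members that were not called stayed so in 90 of 98, gaining a call in 6. The 6 members called lower became 3 with no filter (Zmet5, CLASSY 1 and RAD54, which was not among the 6), beside 1228 of all 5546 genes. With a filter on mean FPKM 2 members were called, beside 1154 of 4097 genes. The count was 0 after rescaling, and 3 without WT library 1 and zmte1-2 library 2. Leaving out each library in turn gave 0 to 8, and the count of members called higher was 0 throughout. The member median of -1.26 became -0.13 after rescaling and ran from -1.40 to -1.06 with single libraries left out, and was -1.01 without both libraries named above. For all listed genes, 1363 lower and 240 higher became 200 and 590 after rescaling. They ran from 1 to 1949 lower and from 1 to 805 higher with single libraries left out, and 755 were higher without both libraries named above. For pathway genes outside the module, 15 lower and 5 higher became 4 and 8 after rescaling. With the first orthology entry 7 were lower, with every entry 7 were lower and 2 higher. A pseudocount of 0.1 and a filter on mean FPKM each gave 3 higher, and single libraries left out gave 0 to 23 lower and 0 to 7 higher. A pseudocount of 0.1 gave 4 members lower, a pseudocount of 1 gave 7 and no mean-variance trend gave 8, beside 1214, 1409 and 1401 of all 3987 tested genes. Apart from fewer libraries and the rescaling's own assumption, the cause was not tested. A replicate block left 0 members, 1 lower and 1 higher listed gene, and 0 pathway genes called. Deviations of same-numbered libraries correlated at -0.30, -0.40 and 0.41. Deviations among 3 libraries of a genotype are tied to each other, so these values cannot decide if the shared number marks a pairing. Depth is unknown, and members under 1 FPKM (SUVR4, PRMT 1.4, ALP1, and in zmte1-2 also RAD54 and CLASSY 1) are limited by it.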

Other observations

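Genes of replication licensing and chromosome structure that the description rule missed were looked up after values were seen. CDT1-like GRMZM2G035665, a loader of the MCM helicase by orthology, had 3.08, 0.98 and 3.9 FPKM in zmte1-2, against 8.54, 5.04 and 6.5 FPKM in WT. Its genotypes did not overlap, and it did not pass (log2 fold change -1.3 with an SE of 0.50, adjusted p = 0.065 by limma). Its relative GRMZM2G032209 had 1.34, 0.73 and 2.12 FPKM in zmte1-2, against 3.57, 2.07 and 2.82 FPKM in WT, with an overlap between zmte1-2 library 3 and WT library 2. A condensin-2 subunit, D3 (GRMZM2G571844), of the complex that compacts chromosomes, had 1.71, 1.22 and 2.39 FPKM in zmte1-2, against 5.29, 4 and 3.76 FPKM in WT, and it fell by 1.11 on the log2 scale (SE 0.35, limma adjusted p = 0.0457). A bromodomain gene (GRMZM2G396846), of proteins that read acetylated histones, had 11.43, 18.18 and 13.03 FPKM in zmte1-2, against 31.51, 28.25 and 35.5 FPKM in WT, and it fell by 1.15 (SE 0.37, limma adjusted p = 0.0476). Unlike most members, its zmte1-2 maximum was in library 2 and its WT maximum in library 3. After median-of-ratios rescaling none of these 4 genes was called, and their log2 fold changes were -0.28 for GRMZM2G035665, 0.07 for GRMZM2G032209, -0.14 for GRMZM2G571844 and -0.02 for GRMZM2G396846. Another bromodomain gene, GRMZM2G158194, was lower in every zmte1-2 library without passing (limma adjusted p = 0.0723). A gene described as nucleosome assembly protein 1;1 (GRMZM5G878913) went the other way. It had 0.91, 0.7 and 0.17 FPKM in zmte1-2, against 0, 0 and 0 FPKM in WT. This was too low for the filter, and without the filter it rose by 1.06 (SE 0.30, limma adjusted p = 0.0444).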
